A study of Mus musculus with 6 samples.

Results

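Endocannabinoids are lipid messengers that neurons make on demand and that act back on the presynaptic terminal. The 8 genes described here were chosen by name as the receptor, its binding partner, and the main enzymes of this system, and all 8 were found among the 14477 genes with values. *Cnr1* encodes the cannabinoid receptor CB1, a G protein–coupled receptor that lowers transmitter release, and *Cnrip1* encodes a protein that binds the CB1 tail. *Dagla* and *Daglb* encode the diacylglycerol lipases that make 2-AG (2-arachidonoylglycerol), and *Mgll* and *Abhd6* encode lipases that break it down. *Napepld* encodes a phospholipase D that makes anandamide and related N-acylethanolamines, and *Faah* encodes the amide hydrolase that breaks them down. In the hippocampus, CB1 protein is best known from the terminals of cholecystokinin-containing interneurons, with lower amounts on glutamatergic terminals. DAGLα sits in the spines of pyramidal cells, monoacylglycerol lipase (the *Mgll* product) in axon terminals and astrocytes, and ABHD6 in neurons on the postsynaptic side.

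RNA-Seq was performed on hippocampal tissue of untreated mice, with 1 library per mouse. The 3 Phf21bΔ4/Δ4 mice (replicates 2, 3, and 6) carry a CRISPR/Cas9 deletion within *Phf21b* in all cells of the body. The 3 Phf21b+/+ mice (replicates 5, 7, and 8) are wild type. According to the methods, the animals were young adult littermates of both sexes kept on a C57BL/6J background, and the line is a knockdown rather than a null. The sex of each mouse and any dissection or library batch are not given in the sources used here. The values are log2 CPM (counts scaled to the effective library size of each mouse, with a mean of 0.1 reads added before the log), and the depth over these genes ran from 20495605 to 24881257 reads. Levels are given in CPM as mean ± SD over 3 mice. The genotypes were compared on the log2 values with limma's moderated test over all genes, and a gene was called at an FDR under 0.1 with a fold change above 1.3.

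*Phf21b* itself had 2.15, 3.57, and 3.87 CPM in Phf21bΔ4/Δ4 replicates 2, 3, and 6 and 6.50, 5.23, and 6.47 CPM in Phf21b+/+ replicates 5, 7, and 8. The genotypes did not overlap, with a log2 fold change of -0.96 ± 0.26 (SE, limma FDR 0.14). The libraries also differed in markers of hippocampal fields and of neighboring tissue. Of 8 medial habenula markers, 7 were called lower in Phf21bΔ4/Δ4 mice, against 0.663% of all genes. Most of these markers are in the study's own list of differentially expressed genes from the same libraries, so their calls are no separate support. The defining habenula genes *Pou4f1* and *Irx2* lay between 0 and 0.0843 CPM in all 3 Phf21bΔ4/Δ4 mice. The 6 dentate granule cell markers summed to 193, 189.5, and 618 CPM in Phf21bΔ4/Δ4 replicates 2, 3, and 6, against 658 to 773 CPM in Phf21b+/+ mice. In this sum Phf21bΔ4/Δ4 replicate 6 lay next to the Phf21b+/+ mice and apart from the other mice of its genotype. The 5 choroid plexus markers summed to 15413 CPM in Phf21b+/+ replicate 7 and to between 22.5 and 957 CPM in the other mice. Values are therefore given per mouse, and with Phf21bΔ4/Δ4 replicate 6 left out where that changes a call.

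Of the 8 genes, 1 was called higher in Phf21bΔ4/Δ4 mice, the receptor gene *Cnr1*, and 0 were called lower. The study's own list of differentially expressed genes, made with another test (edgeR) from the same libraries, does not hold *Cnr1* or any other of the 8. Among all 14477 genes 1.22% were called, 0.553% higher and 0.663% lower. By limma's voom on reads recovered from the values, 0 of the 8 were called, with an FDR of 0.102 for *Cnr1*. At an unadjusted limma p under 0.05 there were 3 of the 8 genes (*Cnr1*, *Napepld*, and *Cnrip1*), against 23.6% of all genes. In the same 3 genes the 3 mice of one genotype lay beyond the 3 of the other, which was so for 31% of all genes. The log2 fold changes ran from -0.70 for *Napepld* to 1.12 for *Cnr1*, with 4 positive and 4 negative. Their median was 0.05, against -0.02 over all genes. Without Phf21bΔ4/Δ4 replicate 6, *Cnr1* was called higher and *Napepld*, *Daglb*, and *Mgll* were called lower, which is 4 of 8 against 19.5% of all genes. In each of these 4 genes that mouse was the nearest of its genotype to the Phf21b+/+ mean, so leaving it out widened the difference. With any other single mouse left out, 0 of the 8 were called. With the mice weighted by limma's arrayWeights, 3 of the 8 were called (*Cnr1*, *Mgll*, and *Napepld*), against 24.5% of all genes. These weights were uneven, highest for Phf21b+/+ replicate 8 (4.63) and Phf21bΔ4/Δ4 replicate 2 (2.04) and lowest for Phf21bΔ4/Δ4 replicate 6 (0.34).

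**Figure D1:**
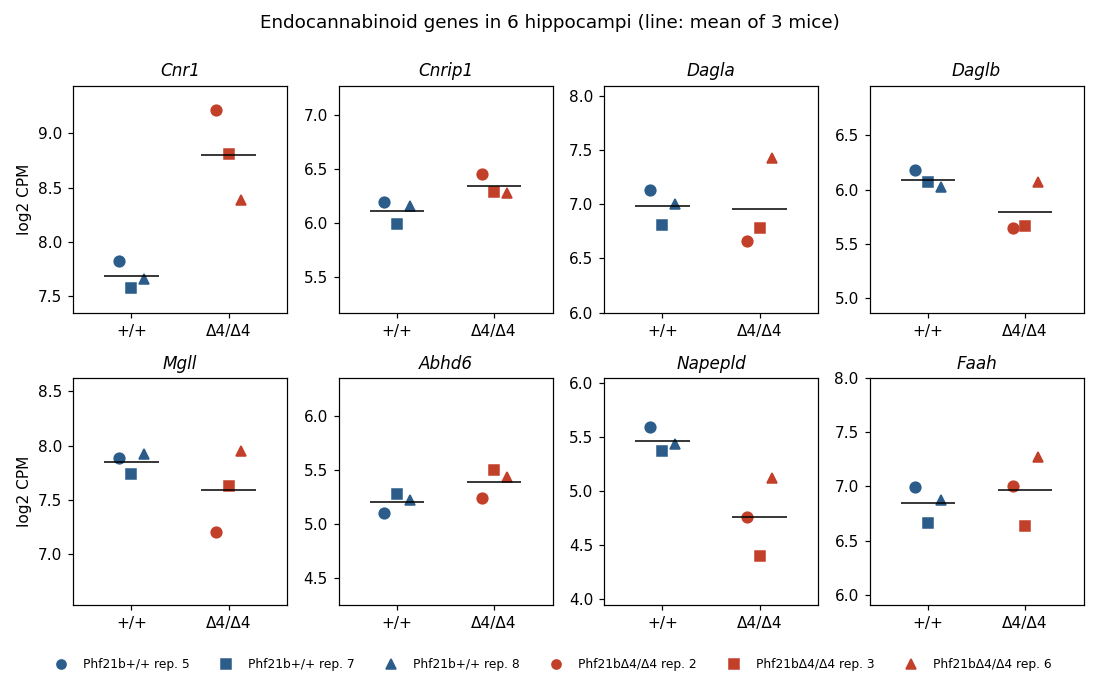
Log2 CPM of the 8 endocannabinoid genes (y axis, each panel spanning the same 2.1 log2 units) in 3 Phf21b+/+ and 3 Phf21bΔ4/Δ4 hippocampi, with a point for each mouse and a line at the mean. *Cnr1* and *Cnrip1* lie higher and *Napepld* lower in all 3 Phf21bΔ4/Δ4 mice, while in the other 5 panels the genotypes overlap.

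*Cnr1* (ENSMUSG00000044288.6) is annotated on chromosome 4 (GRCm38, 33924593 to 33948831, plus strand). It had 594, 449, and 335 CPM in Phf21bΔ4/Δ4 replicates 2, 3, and 6. In Phf21b+/+ replicates 5, 7, and 8 it had 226, 190.1, and 201 CPM. Every Phf21bΔ4/Δ4 mouse was above every Phf21b+/+ mouse, and the Phf21bΔ4/Δ4 mice were spread much more widely. Its mean level was 459 ± 129.8 CPM against 206 ± 18.3 CPM (SD over 3 mice). The change was 2.18-fold, with a 95% interval of 1.56 to 3.05, and the log2 fold change was 1.12 ± 0.20 (SE, limma FDR 0.093). The exact permutation test over the 6 mice gave p = 0.1, the smallest it can give with 3 mice per genotype. The increase was present in each fit that left out 1 mouse, with a log2 fold change between 0.92 and 1.33. The FDR was 0.012 without Phf21bΔ4/Δ4 replicate 6, which has the lowest *Cnr1* of its genotype. It was above the threshold without Phf21bΔ4/Δ4 replicate 2 (0.22) or replicate 3 (0.21) and without Phf21b+/+ replicate 5 (0.13), replicate 7 (0.30), or replicate 8 (0.31). In bulk tissue, more cells that express a gene and more RNA per cell cannot be told apart.

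*Cnrip1* (ENSMUSG00000044629.5, chromosome 11 from 17051586 to 17079371, plus strand) had 87.7, 78.2, and 77.6 CPM in Phf21bΔ4/Δ4 replicates 2, 3, and 6. The Phf21b+/+ replicates 5, 7, and 8 had 73.5, 63.5, and 71.5 CPM. The genotypes did not overlap, but the gap between their nearest mice was small. The log2 fold change of 0.22 ± 0.09 (SE, 95% interval 0.01 to 0.44) had an FDR of 0.20 by limma's moderated test and did not pass. The upper end of its interval, 1.36-fold, was below the lower end of the *Cnr1* interval, 1.56-fold. *Cnrip1* overlaps *Plek* on the opposite strand, and since the strand setting of the read counting is not given in the sources used here, reads where the pair overlap could not be told apart.

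The study linked PHF21B to the transcription factor CREB, which binds the cyclic AMP response element TGACGTCA, so the RefSeq promoters of these genes (GRCm38.p6, 250 bases before to 50 bases after each start) are shown for the receptor and its partner. Promoters were matched for 7 of the 8 genes, all but *Dagla*. On either strand, 0 of the 7 held TGACGTCA, a string found for 3.50% of the 11292 listed genes with a promoter. The shorter string TGACG or its reverse complement CGTCA, which is part of the longer one, was found in 2 of the 7 (*Cnrip1* and *Mgll*) and in 34.4% of those listed genes. For *Cnr1*, which has 3 promoter windows, the window that contains the annotated gene start is shown, chr4:33924394-33924693 on the plus strand, and it holds neither string. For *Cnrip1* the window is chr11:17051609-17051908 on the plus strand, with the match in capitals beginning 60 bases before the RefSeq start. Unlike that of *Cnr1*, this window does not contain the annotated gene start (17051586) and lies after it.
Cnr1: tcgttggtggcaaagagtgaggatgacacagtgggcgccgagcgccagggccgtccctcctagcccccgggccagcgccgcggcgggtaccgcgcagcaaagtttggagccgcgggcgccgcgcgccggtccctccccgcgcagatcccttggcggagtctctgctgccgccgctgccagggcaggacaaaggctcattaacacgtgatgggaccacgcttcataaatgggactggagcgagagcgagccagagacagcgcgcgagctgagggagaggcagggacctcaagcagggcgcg
Cnrip1: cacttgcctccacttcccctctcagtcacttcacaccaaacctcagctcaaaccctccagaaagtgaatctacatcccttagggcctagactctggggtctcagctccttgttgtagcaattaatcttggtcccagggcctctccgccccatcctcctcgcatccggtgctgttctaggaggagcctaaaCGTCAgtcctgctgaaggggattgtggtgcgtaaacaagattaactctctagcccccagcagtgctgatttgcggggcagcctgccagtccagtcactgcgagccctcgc
A match of letters is a description of the window and says nothing of binding, and the RNA values do not bear on binding either.

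The 2 genes of 2-AG synthesis did not pass the test. *Dagla* (ENSMUSG00000035735.10, chromosome 19 from 10245265 to 10304877, minus strand), which encodes the lipase responsible for most 2-AG in adult brain, had 101, 109.8, and 173 CPM in Phf21bΔ4/Δ4 replicates 2, 3, and 6. The Phf21b+/+ replicates 5, 7, and 8 had 140.3, 112, and 129 CPM, within the range of the Phf21bΔ4/Δ4 mice. The means were nearly equal, at 128 ± 39.0 CPM and 127 ± 14.2 CPM (SD over 3 mice). The log2 fold change of -0.03 ± 0.21 (SE, limma FDR 0.95) had a 95% interval of -0.52 to 0.47, which does not exclude a decrease of up to 1.43-fold or an increase of up to 1.38-fold. *Daglb* (ENSMUSG00000039206.13, chromosome 5 from 143464584 to 143505942, plus strand), the paralog that is prominent in microglia, had 49.9, 50.6, and 67.4 CPM in Phf21bΔ4/Δ4 replicates 2, 3, and 6. In Phf21b+/+ replicates 5, 7, and 8 it had 72.6, 67.4, and 65.0 CPM. Phf21bΔ4/Δ4 replicates 2 and 3 were below all Phf21b+/+ mice, and replicate 6 was among them. On the log2 scale the difference was -0.30 ± 0.13 (SE, limma FDR 0.22) with all mice and -0.44 (FDR 0.029) without Phf21bΔ4/Δ4 replicate 6. *Daglb* overlaps *Rac1* on the opposite strand.

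Of the lipases that break down 2-AG, neither passed the test. *Mgll* (ENSMUSG00000033174.17, chromosome 6 from 88724412 to 88828360, plus strand), whose product hydrolyzes most brain 2-AG, had 147, 197, and 247 CPM in Phf21bΔ4/Δ4 replicates 2, 3, and 6. The Phf21b+/+ replicates 5, 7, and 8 had 237, 213, and 243 CPM. Phf21bΔ4/Δ4 replicates 2 and 3 were below all Phf21b+/+ mice, and replicate 6 had the highest level of the 6 mice. The log2 fold change of *Mgll* was -0.26 ± 0.18 (SE, limma FDR 0.40), and without Phf21bΔ4/Δ4 replicate 6 it was -0.44 (FDR 0.093). Without Phf21bΔ4/Δ4 replicate 2 it was -0.06. *Abhd6* (ENSMUSG00000025277.14, chromosome 14 from 8002902 to 8056763, plus strand) had 37.7, 45.2, and 43.2 CPM in Phf21bΔ4/Δ4 replicates 2, 3, and 6 and 34.3, 38.7, and 37.4 CPM in Phf21b+/+ replicates 5, 7, and 8. The genotypes overlapped at a single mouse, since Phf21bΔ4/Δ4 replicate 2 was below Phf21b+/+ replicate 7. Its log2 fold change was 0.19 ± 0.10 (SE, limma FDR 0.27), and its interval excluded an increase above 1.34-fold. Several predicted genes overlap *Mgll* on both strands.

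For the N-acylethanolamines, the synthesis gene was lower in every Phf21bΔ4/Δ4 mouse without passing the test. *Napepld* (ENSMUSG00000044968.16, chromosome 5 from 21662901 to 21701396, minus strand) had 27.0, 21.1, and 34.8 CPM in Phf21bΔ4/Δ4 replicates 2, 3, and 6. In Phf21b+/+ replicates 5, 7, and 8 it had 48.1, 41.3, and 43.1 CPM. All 3 Phf21bΔ4/Δ4 mice were below all 3 Phf21b+/+ mice, and replicate 6 was the nearest to them. The level was 27.6 ± 6.85 CPM against 44.1 ± 3.52 CPM (SD over 3 mice). The log2 fold change was -0.70 ± 0.18 (SE, 95% interval -1.13 to -0.27, FDR 0.14 by limma's moderated test, exact permutation p = 0.1). With 1 mouse left out it stayed between -0.88 and -0.52, and it passed only without Phf21bΔ4/Δ4 replicate 6 (-0.88, FDR 0.022). *Napepld* overlaps *Gm15719* on the opposite strand.

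*Faah* (ENSMUSG00000034171.13, chromosome 4 from 115967145 to 116017926, minus strand), the degradation gene, had 128, 99.5, and 154 CPM in Phf21bΔ4/Δ4 replicates 2, 3, and 6. The Phf21b+/+ replicates 5, 7, and 8 had 127, 101, and 117 CPM. The genotypes overlapped throughout, with the lowest and the highest mouse both Phf21bΔ4/Δ4. The difference was 0.13 ± 0.17 on the log2 scale (SE, limma FDR 0.65) with a 95% interval of -0.28 to 0.53, and it was -0.02 without Phf21bΔ4/Δ4 replicate 6. In Phf21bΔ4/Δ4 mice replicate 6 was the highest of its genotype for *Dagla*, *Daglb*, *Mgll*, *Napepld*, and *Faah* and the lowest for *Cnr1* and *Cnrip1*.

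**Figure D2:**
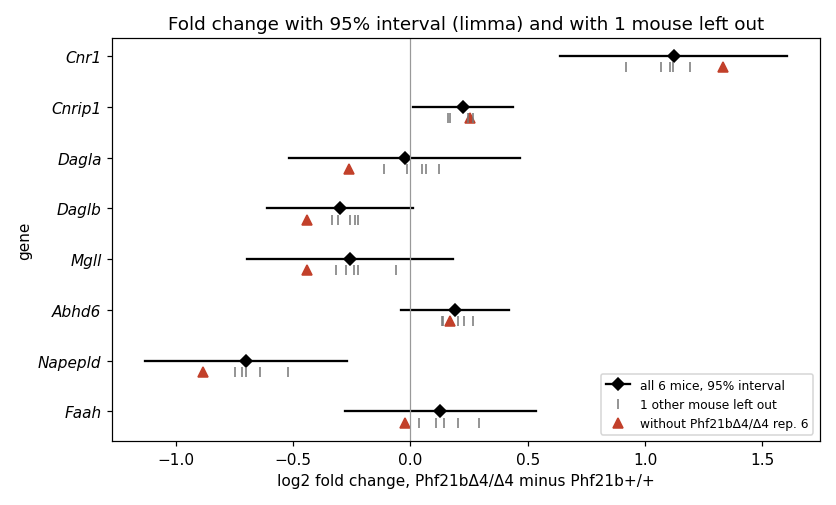
Log2 fold change (x axis) of each endocannabinoid gene in Phf21bΔ4/Δ4 against Phf21b+/+ hippocampi, with the 95% interval of limma's moderated test (line) and the value with 1 mouse left out (ticks, and a triangle for Phf21bΔ4/Δ4 replicate 6). The intervals of *Cnr1*, *Cnrip1*, and *Napepld* exclude 0, and leaving out replicate 6 moves *Cnr1* from 1.12 to 1.33 and *Napepld* from -0.70 to -0.88.

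The synthesis and degradation genes were also set against each other within each mouse, which does not depend on how a library is scaled. The log2 CPM of *Napepld* minus that of *Faah* was -2.25, -2.24, and -2.15 in Phf21bΔ4/Δ4 replicates 2, 3, and 6 and -1.41, -1.29, and -1.45 in Phf21b+/+ replicates 5, 7, and 8. The genotypes did not overlap, and mice of a genotype lay close together. *Napepld* alone also did not overlap, which was so for 31% of all single genes. No test was run on the within-mouse differences, and the share of all gene pairs that do not overlap was not measured. The mean difference was -2.21 ± 0.054 in Phf21bΔ4/Δ4 mice and -1.38 ± 0.079 in Phf21b+/+ mice (SD over 3 mice), a ratio of *Napepld* to *Faah* reads that was 1.78-fold lower. The SD of this difference among Phf21bΔ4/Δ4 mice was smaller than that of either gene alone, which was 0.36 for *Napepld* and 0.32 for *Faah* on the log2 scale. With 1 mouse left out, the gap between the genotypes stayed between -0.86 and -0.79. The log2 CPM of *Dagla* minus that of *Mgll* was -0.54, -0.85, and -0.52 in Phf21bΔ4/Δ4 replicates 2, 3, and 6 and -0.76, -0.93, and -0.92 in Phf21b+/+ replicates 5, 7, and 8. Here the genotypes overlapped, and the gap of 0.23 was of the size of the SD among Phf21bΔ4/Δ4 mice (0.18). The gaps compare genotypes and not the levels of the genes, since the genes differ in length.

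**Figure D3:**
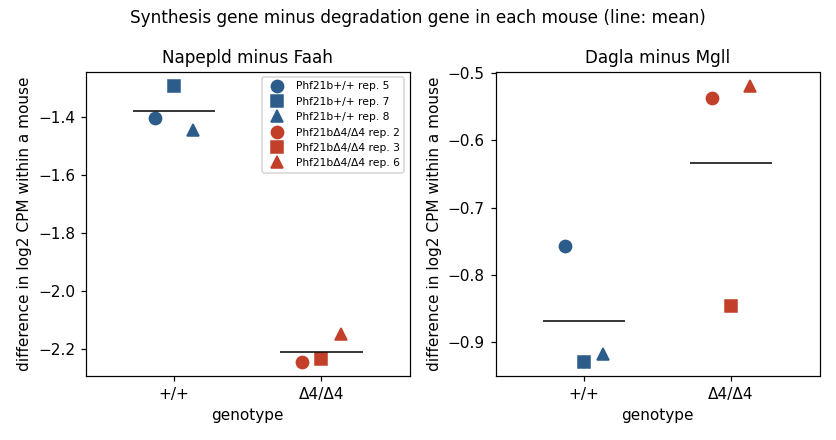
Difference in log2 CPM between a synthesis gene and a degradation gene within each mouse (y axis; left *Napepld* minus *Faah*, right *Dagla* minus *Mgll*), with a line at the mean of 3 mice. The genotypes are apart for the N-acylethanolamine pair (-2.25 to -2.15 against -1.45 to -1.29) and overlap for the 2-AG pair. No test was run on either pair.

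Per kilobase of annotated exon, the order of the levels in Phf21b+/+ mice was *Mgll*, *Cnr1*, *Dagla*, *Cnrip1*, *Abhd6*, *Faah*, *Napepld*, and *Daglb*. *Mgll* had 45.5 ± 3.07 CPM per kb and *Cnr1* 31.9 ± 2.85 CPM per kb, and their mice did not overlap. *Dagla* followed at 22.1 ± 2.47 CPM per kb. *Cnrip1*, *Abhd6*, and *Faah*, between 17.4 and 14.7 CPM per kb, each overlapped with the next of them. *Napepld* (11.2 ± 0.889 CPM per kb) and *Daglb* (7.14 ± 0.404 CPM per kb) stood apart as the lowest. In Phf21bΔ4/Δ4 mice *Cnr1* came first, at 71.2 ± 20.1 CPM per kb, above *Mgll* at 38.8 ± 9.90 CPM per kb, and the other 6 genes kept their order. When the longest transcript was used as the length, *Mgll* was still the highest in Phf21b+/+ mice, *Cnrip1* came next to *Cnr1* and overlapped with it, and *Napepld* rather than *Daglb* was lowest. In Phf21bΔ4/Δ4 mice *Cnr1* and *Mgll* then overlapped. All of these are levels and not changes.

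**Figure D4:**
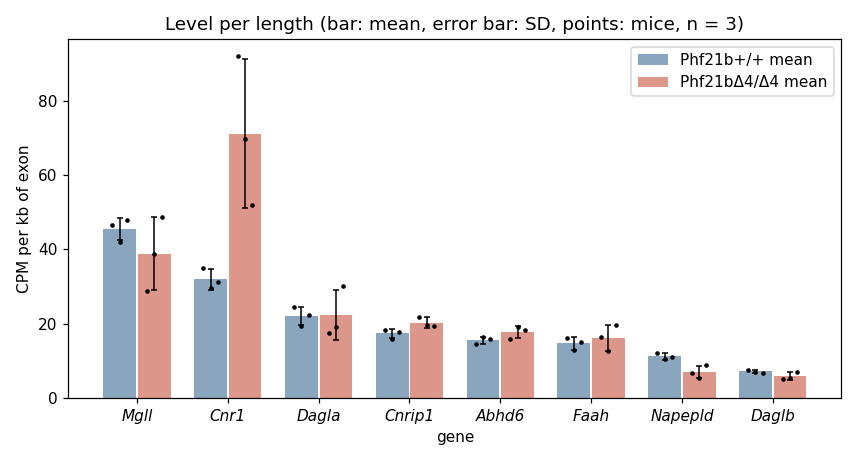
Level of each gene in CPM per kb of annotated exon (y axis, from 0) in Phf21b+/+ and Phf21bΔ4/Δ4 mice, with bars at the mean, error bars of 1 SD, and a point for each of 3 mice. *Mgll* is the highest in Phf21b+/+ mice (45.5) and *Cnr1* in Phf21bΔ4/Δ4 mice (71.2).

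The wider pathway was followed in 37 other listed genes, of which 0 were called by limma's moderated test on the values and 0 by voom. At an unadjusted p under 0.05 there were 17 of the 37, against 23.6% of all genes. In 16 the genotypes did not overlap (12 higher and 4 lower in Phf21bΔ4/Δ4 mice), against 31% of all genes. The 6 receptors and G proteins that drive phospholipase C ahead of 2-AG synthesis had a median log2 fold change of 0.42. Of these 6, 0 were called by either tool, 4 had an unadjusted p under 0.05, and 4 did not overlap between genotypes, against 31% of all genes. Their summed level was 1458 to 1519 CPM in Phf21bΔ4/Δ4 mice and 1058 to 1200 CPM in Phf21b+/+ mice. The largest difference of this group was that of *Chrm3*, the muscarinic M3 receptor gene, at 0.58 ± 0.24 (SE, limma FDR 0.21). *Grm5*, the gene of the metabotropic glutamate receptor mGluR5, which is named here after its values were seen, had 701 ± 58.6 CPM against 498 ± 21.97 CPM (SD over 3 mice; log2 fold change 0.49, FDR 0.11, limma). Among 6 phospholipase C and lysophospholipid genes the median was -0.04, and the largest difference was that of *Plcb4*, a phospholipase C, at -0.99 ± 0.25 (SE, limma FDR 0.13). *Plcb4* had 36.1 ± 10.2 CPM against 71.5 ± 17.9 CPM (SD over 3 mice).

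The 2 other genes of 2-AG hydrolysis or oxidation overlapped between genotypes, and the hydrolase gene *Abhd12* had the larger difference, 0.13 (FDR 0.42, limma). Among 7 other N-acylethanolamine enzymes the median log2 fold change was -0.15, and the largest difference was that of *Naaa*, an acid amidase gene, at -0.59 ± 0.23 (SE, limma FDR 0.19). The 3 genes of fatty acid binding proteins that carry endocannabinoids in the cytosol also overlapped, and *Fabp7* had the largest difference, -0.44 (FDR 0.33, limma). Of 2 listed receptor partners, *Wasf1*, which encodes a WAVE protein of the actin cytoskeleton, had the larger difference, 0.67 ± 0.20 (SE, limma FDR 0.15). *Cnr2*, *Gpr55*, and *Trpv1*, which encode other receptors for these lipids, have no values in the table. Among 11 effectors downstream of CB1 the median was 0.20, with 0 called by either tool. Of these 11, 5 had an unadjusted limma p under 0.05, against 23.6% of all genes. Without overlap, 4 were above and 1 below Phf21b+/+ mice, against 31% of all genes. *Cacna1b*, the N-type calcium channel gene whose product CB1 inhibits, had the largest difference of these, 0.71 ± 0.22 (SE, limma FDR 0.15). Without Phf21bΔ4/Δ4 replicate 6, 11 of the 37 genes were called (7 higher and 4 lower), against 19.5% of all genes, and 0 of the 37 were called when any other single mouse was left out.

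The genes most like *Cnr1* over the 6 mice, by Pearson's correlation of log2 CPM, were *Hapln1*, *Rin3*, *Uhmk1*, *Ipo11*, and *Tnfaip3*, with r between 0.995 and 0.999. Of all other genes, 967 (6.68%) had an r above 0.9, and all points share the same 6 libraries and the split by genotype. *Hapln1*, which encodes a link protein of perineuronal nets, had a log2 fold change of 0.62 ± 0.12 (SE, limma FDR 0.11). The log2 fold changes of the other 4 were between 0.32 and 0.96.

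The summed levels of several marker lists differed between the genotypes, and those of others overlapped. The 6 GABAergic interneuron markers summed to 839, 819.6, and 626 CPM in Phf21bΔ4/Δ4 replicates 2, 3, and 6 and to between 459 and 512 CPM in Phf21b+/+ mice. In this sum, as for *Cnr1*, replicate 6 was the lowest Phf21bΔ4/Δ4 mouse. The genotypes did not overlap in 5 of the 6 interneuron markers, against 31% of all genes. Of the 6, 1 was called higher (*Gad2*, log2 fold change 0.62, FDR 0.083, limma), against 0.553% of all genes. Of 6 markers of cholecystokinin and caudal ganglionic eminence interneurons, 0 were called by limma on the values or by voom, and 4 had positive and 2 negative log2 fold changes. Their sums overlapped, at 347, 307, and 465 CPM in Phf21bΔ4/Δ4 replicates 2, 3, and 6 and 310.1 to 429 CPM in Phf21b+/+ mice. In this sum, unlike for *Cnr1*, replicate 6 was the highest Phf21bΔ4/Δ4 mouse. An unadjusted p under 0.05 was reached by 3 of the 6, against 23.6% of all genes. These were *Vip* (log2 fold change 1.26), *Htr3a* (1.05), and *Prox1* (-1.08), of which *Prox1* is also in the dentate granule cell list. *Cck* itself overlapped (0.35, standard error 0.19, FDR 0.29, limma). The 6 CA1 markers summed to between 859 and 971 CPM in Phf21bΔ4/Δ4 mice and to between 363 and 402 CPM in Phf21b+/+ mice. All 6 had positive log2 fold changes, and 2 were called higher (*Fibcd1* and *Mpped1*), against 0.553% of all genes. These 2 genes hold much of the sum, with 384 and 299 CPM of the 859 CPM in Phf21bΔ4/Δ4 replicate 2. Both, like *Gad2* above, are in the study's own list from the same libraries, so these calls are no separate support. In 3 of the 6 the genotypes did not overlap, against 31% of all genes, while the other CA1 markers, such as *Wfs1*, overlapped. The 6 dentate granule cell markers all had negative log2 fold changes (median -1.29), with 0 called by limma on the values or by voom. Of these 6, 5 had an unadjusted p under 0.05, against 23.6% of all genes, and 4 did not overlap, against 31%. As for *Napepld*, *Daglb*, and *Mgll*, replicate 6 was the Phf21bΔ4/Δ4 mouse with the highest dentate sum. What part these markers have in the results was not tested.

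Over all genes, 0.553% were called higher, 0.663% were called lower, and 23.6% had an unadjusted p under 0.05. Of 5 thalamic markers, 1 was called lower, and all 5 had negative log2 fold changes (median -1.94), with 3 at an unadjusted p under 0.05. Their sum was 140.1 to 161 CPM in Phf21bΔ4/Δ4 mice and 229 to 402 CPM in Phf21b+/+ mice. Of 6 CA3 and CA2 markers 0 were called by either tool, with 2 at an unadjusted p under 0.05 and overlapping sums. Of 6 astrocyte markers, 1 was called lower (*Aqp4*, log2 fold change -0.68, FDR 0.067, limma), and their sums overlapped, at 2596 to 2942 CPM against 2697 to 3019 CPM. Of 5 microglia markers 0 were called by either tool and 1 had an unadjusted p under 0.05, with sums of 282 to 299 CPM against 261 to 286 CPM. Of 5 oligodendrocyte markers 0 were called by either tool and 0 had an unadjusted p under 0.05. Of 5 choroid plexus markers 1 was called lower, and all 5 had negative log2 fold changes (median -4.11), with the sums given above for Phf21b+/+ replicate 7 and the other mice. Of 4 endothelial markers 0 were called by either tool, with 3 at an unadjusted p under 0.05. All 4 had positive log2 fold changes. Their sums did not overlap, at 85.8 to 103 CPM in Phf21bΔ4/Δ4 mice and 59.9 to 79.9 CPM in Phf21b+/+ mice.

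**Figure D5:**
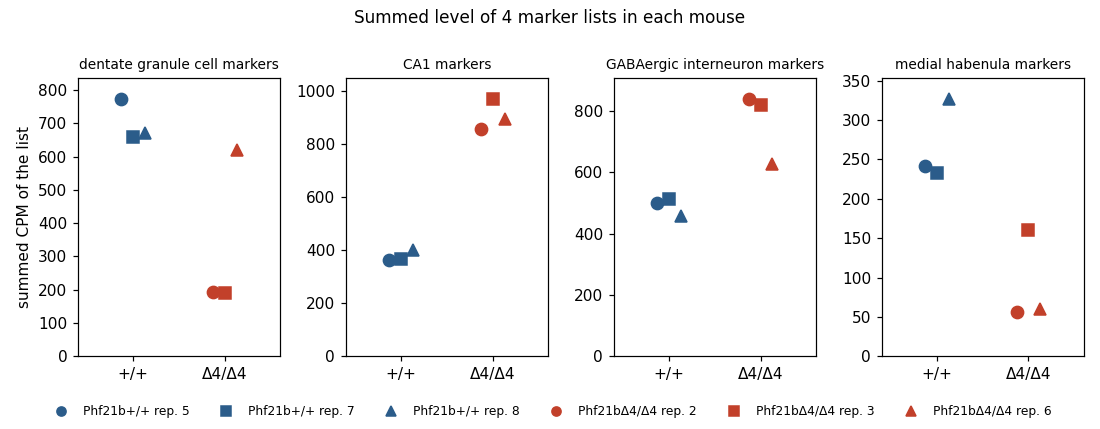
Summed CPM of 4 marker lists (y axis, from 0) in each of the 3 Phf21b+/+ and 3 Phf21bΔ4/Δ4 mice. The dentate granule cell sum is lowest in Phf21bΔ4/Δ4 replicates 2 and 3 (193 and 189.5). In replicate 6 (618) it is near the Phf21b+/+ mice (658 to 773) but still below them. The CA1 and interneuron sums are higher in all 3 Phf21bΔ4/Δ4 mice, and the medial habenula sum is lower. Much of the CA1 sum comes from *Fibcd1* and *Mpped1*, which are in the study's own list of differentially expressed genes. Within each list, some single markers overlap between genotypes.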

How the data were processed

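Hippocampal RNA of 3 Phf21bΔ4/Δ4 and 3 Phf21b+/+ mice was sequenced from ribosomal RNA–depleted total RNA, and mice were grouped by their sample labels. Per the labels and the methods, the authors trimmed reads with Trimmomatic 0.39, mapped them to GRCm38 with STAR 2.7.3a, counted them over genes with featureCounts of Subread 1.6.4, filtered on CPM, and normalized with edgeR. Their deposited table gives log2 CPM, by effective library size, for 14477 genes. Of these, 14439 had at least 1 CPM in at least 2 mice. Reads were recovered from the steps of the low values, and all values were whole within 0.1 reads. Recovered reads were used for depth, CPM, and voom.

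Genotypes were compared with limma 3.58.1 in R 4.3.3 (lmFit and eBayes, trend = TRUE, so that the prior variance depends on mean level), with no covariate and Benjamini-Hochberg adjustment over all genes. Tests were 2-sided. The thresholds are those of the study, but the study applied them to edgeR tests, and its list does not hold *Cnr1*. The fit was also run on simulated data with known changes. The simulation gave all genes the same dispersion and set no library apart, so it does not cover the differences between these libraries. The labels number each library as a separate replicate, and p-values measure only the spread between these libraries. Alternatives were other variance models, weights, filters, pseudocounts, normalizations, voom, thresholds, and each mouse left out. Members, lists, and tests were chosen with earlier results of these data known. Marker and pathway lists were written from general knowledge. Some marker genes, among them *Pou4f1*, *Irx2*, *Fibcd1*, *Mpped1*, *Gad2*, *Aqp4*, and *Tcf7l2*, are also in the study's own list of differentially expressed genes. Their calls are not independent of that list. Genes named are the 8 members, *Phf21b*, the largest change in each pathway list, and the 5 genes most like *Cnr1*. *Grm5*, *Vip*, *Htr3a*, and *Prox1* were added after their values were seen, and of the marker lists the defining or called genes are named. Positions, exon lengths, and overlaps come from the GENCODE M21 annotation of GRCm38 (98.8% of symbols found). Summaries used pandas 2.3.3 and NumPy 2.4.6 in Python 3.11.15, and plots used matplotlib 3.10.9.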

Additional observations from a re-analysis of the deposited data

How the results depend on the processing

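No paired analysis was possible because the genotypes share no replicate numbers. Over 15 alternative fits, the log2 fold changes of *Cnr1*, *Cnrip1*, *Abhd6*, *Daglb*, *Mgll*, and *Napepld* kept their direction, while those of *Dagla* and *Faah* did not. *Cnr1* remained higher but missed the FDR threshold with the same prior variance for all genes (1.12), robust empirical Bayes (1.12), a filter that kept mean log2 CPM of 1 or more (1.12), voom (1.12), and quantile normalization (0.92), and its FDR over all alternatives ranged from 0.0078 to 0.31. With arrayWeights, *Mgll* (-0.54) and *Napepld* (-0.72) were also called, and with centring on the median of each mouse *Dagla* became 0.024. When single mice were left out, the log2 fold changes ranged from 0.92 to 1.33 for *Cnr1*, from -0.26 to 0.12 for *Dagla*, from -0.44 to -0.23 for *Daglb*, from -0.44 to -0.063 for *Mgll*, from -0.022 to 0.29 for *Faah*, and from -0.88 to -0.52 for *Napepld*. Among the 8 genes, the number called was 0 in the same 5 fits and at an FDR under 0.05, 3 with arrayWeights, and between 0 and 4 with each mouse left out, against 1 with the values as deposited. Over all genes the number was 176 as deposited, 75 with the same prior variance, 3549 with arrayWeights, 101 under that filter, 25 at an FDR under 0.05, 90 above 2-fold, and between 9 and 2830 with each mouse left out. The lowest came without Phf21b+/+ replicate 8 and the highest without Phf21bΔ4/Δ4 replicate 6. Of the 37 other pathway genes, 11 were called with arrayWeights and between 0 and 11 with each mouse left out. *Napepld* minus *Faah* differed by -0.72 between genotypes after quantile normalization, in an alternative chosen after the data were seen, and with each mouse left out by between -0.86 and -0.79. The shorter motif was found in 2 members in place of 0. By the longest transcript the Phf21b+/+ levels per kb moved to 57.9 (*Mgll*), 35.4 (*Cnr1*), 32.3 (*Cnrip1*), 20.8 (*Faah*), 16.5 (*Abhd6*), and 14.0 (*Daglb*). The cause of these changes was not tested. The 8 genes had between 443 and 14078 reads per mouse, and the part of depth in their precision was not tested.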
